A study of Rattus norvegicus with 12 samples.

Results

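Hepcidin, the liver hormone that controls how much iron enters the blood, and 9 further genes of liver iron handling were compared between 6 cystic PCK rat livers and 6 Sprague Dawley control livers. The 10 genes were taken from the platform annotation by symbol, current or older, among 16592 genes with a named probe set, and all 10 had a row. Hemojuvelin, listed by the array as Hfe2, is given here under its current symbol, Hjv. All rats were male and 10 weeks old. PCK rats are labelled as the Crj:CD/SD strain from Charles River Japan with PCK disease, and the controls as Sprague Dawley without disease. The PCK rat carries an inherited mutation of Pkhd1 and develops bile duct cysts in the liver. All animals had the same diet, with 19% protein, and the same water. The labels describe biological replicates and do not give litters or the source colony of the controls, so colony and disease cannot be told apart. Each value is a log2 signal of 1 probe set on 1 array, with 6 arrays a group.

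Hepcidin is made by hepatocytes and released into blood. It binds ferroportin, the only known cellular iron exporter in mammals, and has it degraded, so that iron stays inside gut cells and macrophages. Its gene, Hamp, is switched on mainly by bone morphogenetic protein (BMP) signals through SMAD factors, with hemojuvelin as a co-receptor and HFE and transferrin receptor 2 as sensors of transferrin-bound iron, and by interleukin 6 through STAT3. Work in mice places the BMP ligands of this pathway in liver endothelial cells.

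Both signals act on short elements in front of Hamp that are known from human and mouse. The rat sequence is shown because Hamp is the gene on which both signals meet. It is the stretch from base -250 to base -31 before the RefSeq gene start, on the minus strand of assembly GRCr8 at chr1:95300302-95300521. Capitals mark GGCGCC, the core of the BMP response element, and TTCNNNGAA, the general form of a STAT site, here TTCTTGGAA. Both motifs read the same on either strand and they did not overlap.
Hamp: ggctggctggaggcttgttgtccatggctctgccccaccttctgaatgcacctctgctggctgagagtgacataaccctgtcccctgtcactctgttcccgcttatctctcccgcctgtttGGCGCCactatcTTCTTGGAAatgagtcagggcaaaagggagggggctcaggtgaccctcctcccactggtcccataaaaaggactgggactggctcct

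GGCGCC began at base -129 and the STAT-type site at base -117, with 6 bases between them. Of 33469 rat promoters in the RefSeq table, 8.69% held GGCGCC in the 250 bases before the start, 7.67% held TTCNNNGAA and 0.379% held both. Among the 10 iron genes, 8 had an entry, and 2 of them held GGCGCC, Hamp and the transferrin receptor gene Tfrc, and 2 held TTCNNNGAA, Hamp and Hjv. The 50 bases around the other 2 matches are given for comparison, Tfrc on the minus strand at chr11:81690409-81690458 and Hjv on the plus strand at chr2:186754631-186754680. Among 7 BMP target genes, 6 had an entry. Of these, Smad7 and Bambi held GGCGCC and were not called, while Id2, Id3 and Atoh8, which fell in PCK livers, and Id1, which was not called, held none in this window. A match is a string of letters, not evidence of binding.
Tfrc: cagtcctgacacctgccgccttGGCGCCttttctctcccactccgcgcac
Hjv: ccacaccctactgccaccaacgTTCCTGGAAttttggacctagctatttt

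Of the 10 genes, 6 fell in PCK livers (Hamp, Bmp6, Hjv, Tfr2, Tfrc and Slc40a1), 1 rose (Hfe), and 3 did not pass the test (Tf, Slc11a2 and Fth1). A gene was called at an adjusted p under 0.05 in limma, a linear model fitted to all 16592 genes, with Benjamini-Hochberg adjustment over all of them. Many genes differed between these livers: 38.3% of all genes were called, 21.0% lower and 17.4% higher in PCK. The median difference of the 10 genes was -0.21, beside -0.0067 over all genes (PCK minus control, log2). In 2 genes every PCK value lay below every control value, Hamp and Tfr2, and in 1, Hfe, every PCK value lay above. Over all genes 21.6% had groups that did not overlap, 10.6% with PCK below and 11.0% with PCK above.

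**Figure D1:**
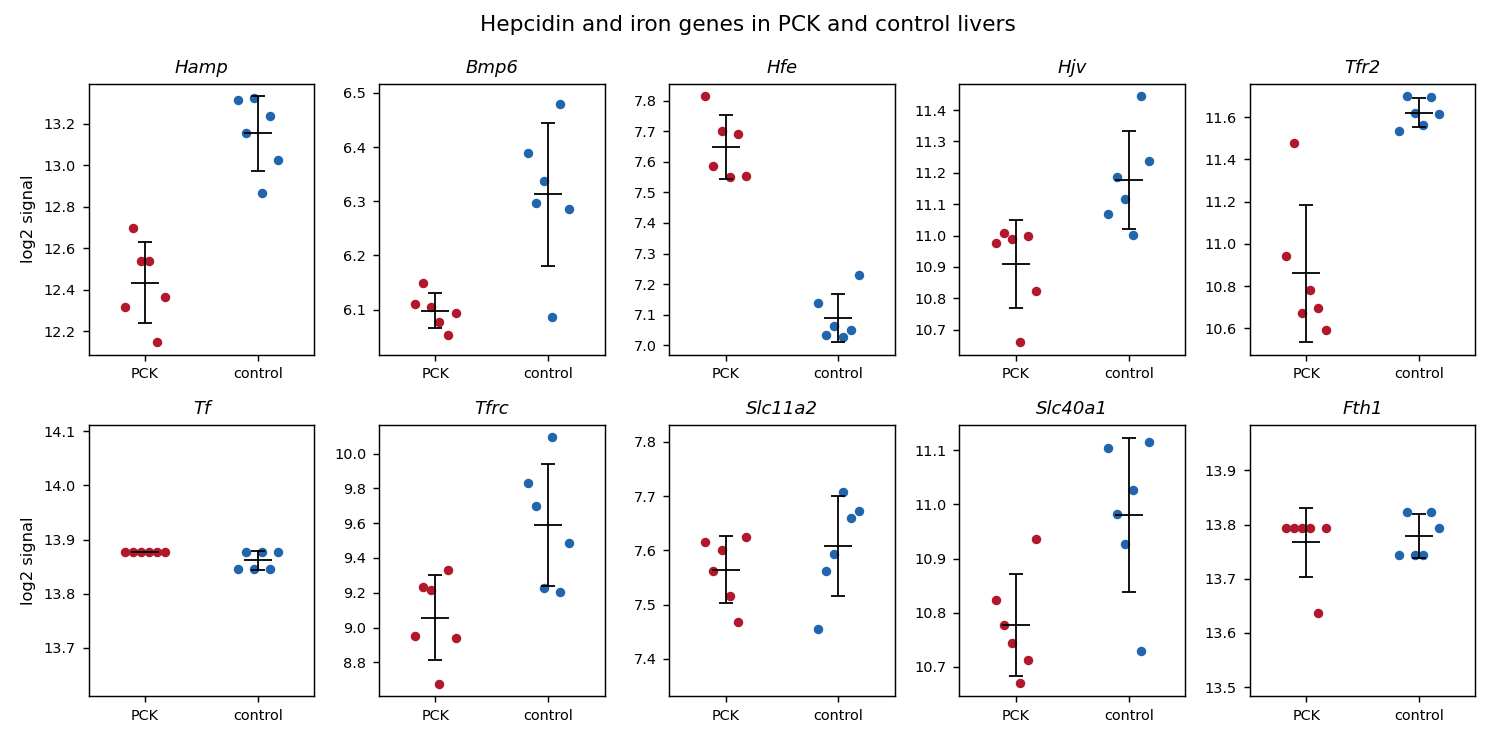
Log2 signal of the 10 iron genes in each liver, PCK (red, left) and control (blue, right), with mean and SD of 6 arrays a group; each panel has its own scale. Hamp and Tfr2 are lower and Hfe higher in PCK with no overlap, while Tf and Fth1 differ by less than 0.02 between group means.

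Hamp, encoding hepcidin itself, fell to 0.608 of its control level. Its log2 signals ran from 12.15 through a median of 12.45 to 12.70 in PCK livers, against 12.87, 13.20 and 13.32 in control livers (lowest, median, highest). The highest PCK liver, PCK 2, was below the lowest control liver, control 4. The means were 12.44 ± 0.20 in PCK and 13.15 ± 0.18 in control livers (SD, n = 6 each), a difference of -0.72 ± 0.10 on the log2 scale (SE; limma adjusted p = 0.000239). Without any 1 array the difference stayed between -0.78 and -0.66. In bulk tissue, fewer cells of a type and less RNA per cell cannot be told apart, here and in every result below. Of 6 hepatocyte markers measured, 1 was called, Serpina1 at -0.067, beside 38.3% of all genes called. The summed signal of the 6 markers ran from 16.05 to 16.10 in PCK and from 16.06 to 16.11 in control livers (log2). Alb, a defining hepatocyte gene, was the brightest gene on all 12 arrays, with the same value on each. The arrays share 1 set of sorted values, which fixes the brightest, and the other markers were near the top too. The sum could thus hardly differ, and neither it nor the count of called markers measures the hepatocyte share.

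Bmp6, the BMP ligand that rises with liver iron and drives Hamp, was lower in PCK livers by a small amount. It ran from 6.05 through 6.10 to 6.15 in PCK livers, against 6.09, 6.32 and 6.48 in control livers. The PCK livers lay close together, and 1 control liver, control 4, fell among them at 6.09. Bmp6 averaged 6.10 ± 0.033 in PCK and 6.31 ± 0.13 in control livers (SD, n = 6 each), a difference of -0.21 ± 0.053 (SE, log2 scale; limma adjusted p = 0.00761), and -0.26 without control 4. Control 4 also had the lowest Hamp of its group. These signals were not far above the median of the table, 5.66, and the files give no detection calls.

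The sensors of iron-loaded transferrin did not move one way. Tfr2, transferrin receptor 2, which in hepatocytes responds to transferrin-bound iron and promotes hepcidin expression, ran from 10.59 through 10.74 to 11.48 in PCK livers, against 11.54, 11.62 and 11.70 in control livers. PCK 2 stood near the control group and the other 5 PCK livers at 10.94 or below. The difference was -0.76 ± 0.13 (SE, log2 scale; limma adjusted p = 0.000739), or 0.590 of the control level, and -0.89 without PCK 2.

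Hfe encodes an MHC class I-like protein whose loss causes hemochromatosis, with too little hepcidin. It was the only one of the 10 genes to rise. Its signals ran from 7.55 through 7.64 to 7.82 in PCK livers, against 7.03, 7.06 and 7.23 in control livers. All 6 PCK livers were above all 6 control livers, and the difference was 0.56 ± 0.051 (SE, log2 scale; limma adjusted p = 1.05e-05), a 1.47-fold higher level.

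Hjv, the BMP co-receptor hemojuvelin, ran from 10.66 through 10.98 to 11.01 in PCK livers, against 11.00, 11.15 and 11.45 in control livers. The groups met at their edges, with 5 of 6 PCK livers below the lowest control. The difference was -0.27 ± 0.081 (SE, log2 scale; limma adjusted p = 0.0222). It missed the threshold when control 5, control 6 and PCK 6 were left out together, at -0.17 (adjusted p = 0.135), a setting added because an earlier account of these data left out those arrays.

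**Figure D2:**
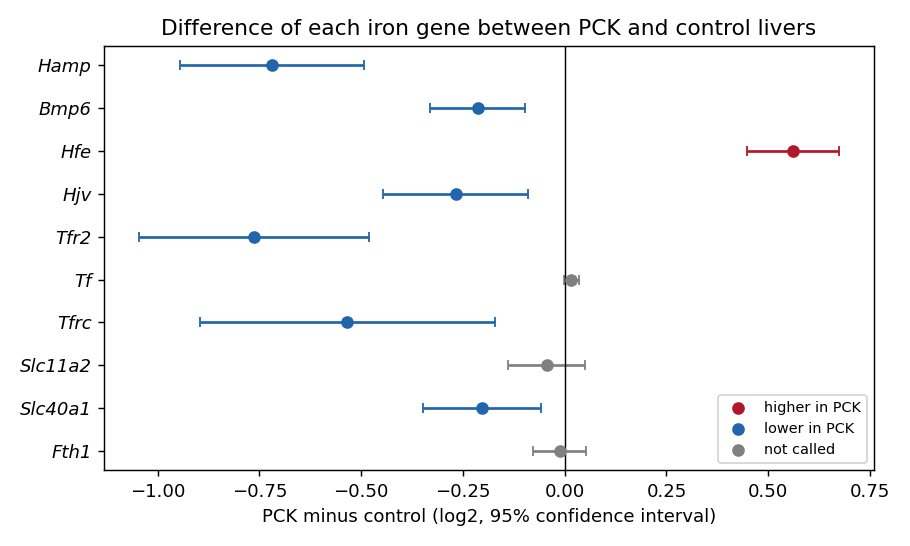
PCK minus control difference of each iron gene (log2) with its 95% confidence interval from limma; red marks genes higher in PCK, blue genes lower in PCK and grey genes that were not called. Tfr2 and Hamp lie farthest to the left, at -0.76 and -0.72, and Hfe alone lies to the right, at 0.56.

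Of the uptake and export genes among the 10, Tfrc and Slc40a1 fell and Slc11a2 was not called. Tfrc, transferrin receptor 1, which brings transferrin-bound iron into cells and whose mRNA is stabilised when cell iron is low, ran from 8.68 through 9.08 to 9.33 in PCK livers, against 9.21, 9.60 and 10.09 in control livers. The groups overlapped, with 3 PCK livers above the lowest control liver and 3 below it. The difference was -0.53 ± 0.16 (SE, log2 scale; limma adjusted p = 0.0240). This call was near the threshold. It was lost without control 1, at -0.49 (limma adjusted p = 0.0517). The adjusted p was 0.0494 without PCK 6 and 0.0489 without PCK 4.

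Slc40a1, encoding ferroportin, ran from 10.67 through 10.76 to 10.94 in PCK livers, against 10.73, 11.01 and 11.12 in control livers. Control 5, at 10.73, fell within the PCK range. The difference was -0.20 ± 0.066 (SE, log2 scale; limma adjusted p = 0.0305), and the call was at the edge: leaving out PCK 2, 3, 4 or 5, or control 1, 2, 4 or 6, gave an adjusted p of 0.0522 to 0.0651. Ferroportin is also made by Kupffer cells, the liver macrophages. Of 5 measured Kupffer cell and macrophage markers 4 were higher in PCK livers and none lower, and Cd163 was not called. Over all genes 17.4% were called higher. The summed signal of these markers ran from 11.65 to 12.08 in PCK and from 10.93 to 11.66 in control livers (log2). Their part in the Slc40a1 value was not tested.

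Slc11a2, encoding the metal transporter DMT1 that moves iron out of endosomes, did not pass. It ran from 7.47 through 7.58 to 7.62 in PCK livers, against 7.46, 7.63 and 7.71 in control livers, and every PCK liver fell within the control range. The difference was -0.044 (95% interval -0.14 to 0.051; limma adjusted p = 0.465).

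Tf, the plasma iron carrier transferrin, and Fth1, the ferritin heavy chain that stores iron, were at the top of the signal range. Tf was at 13.88 in all 6 PCK livers, against 13.85 to 13.88 in control livers, in place 2 or 3 by brightness among all genes on each array. Fth1 ran from 13.64 through 13.79 to 13.79 in PCK livers, against 13.74, 13.77 and 13.82 in control livers, and held places 4 to 9 from the top. The deposited arrays share 1 set of values, so a gene at the top of all of them can only take one of the few highest values. The differences were 0.016 for Tf (95% interval -0.0028 to 0.034; limma adjusted p = 0.169) and -0.012 for Fth1 (95% interval -0.077 to 0.053; adjusted p = 0.793), and these intervals do not account for that limit. Fth1 also has many processed pseudogenes in rodents that probes may not separate.

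The rest of the pathway was described with 10 lists of 94 genes, 85 of them measured. Of these 44 were called (51.8%), 19 higher and 25 lower, beside the 38.3% of all genes called. Of all genes 17.4% were called higher and 21.0% lower, and the count of each list below stands beside these shares. Of the 10 lists, most held genes called in both directions, and no test between lists was run.

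**Figure D3:**
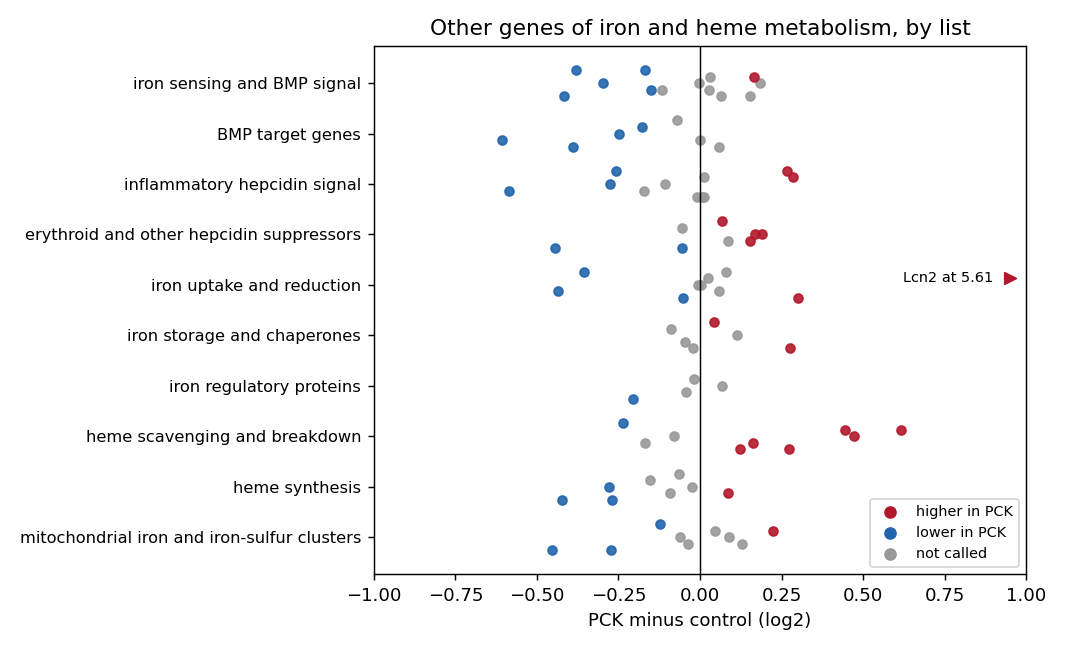
PCK minus control difference (log2) of each measured gene in the 10 lists; red marks genes higher in PCK, blue genes lower in PCK and grey genes not called, with points offset in height for legibility. Lcn2 lies beyond the axis at 5.61. Called BMP target genes all lie to the left, and most called genes of heme scavenging and breakdown to the right. Over all genes 21.0% were called lower and 17.4% higher.

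BMP target genes were lower or not called. Of 7 measured, 4 fell and none rose, with a median difference of -0.18, beside 21.0% of all genes called lower. Id2, an inhibitor of basic helix-loop-helix factors, ran from 10.29 to 10.57 in PCK livers, against 10.90 to 11.29 in control livers, a difference of -0.61 ± 0.072 (SE, log2 scale; limma adjusted p = 6.55e-05). Atoh8, a transcription factor that in mice responds to iron and acts on Hamp, ran from 6.51 to 6.85 in PCK livers, against 6.85 to 7.43 in control livers, with no overlap. It differed by -0.39 ± 0.091 (adjusted p = 0.00541). The inhibitory SMAD gene Smad6 fell by 0.18 (adjusted p = 0.000144) and Id3 by 0.25 (adjusted p = 0.0191). Smad6 averaged 5.70 in PCK and 5.88 in control livers, near the median of the table. The other 3 were not called: Id1, a direct BMP target, differed by 0.057 (adjusted p = 0.223), Smad7 by -0.069 (adjusted p = 0.0873) and Bambi by -0.0013 (adjusted p = 0.990). Id1 and Smad7 also lay near the median of the table.

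**Figure D4:**
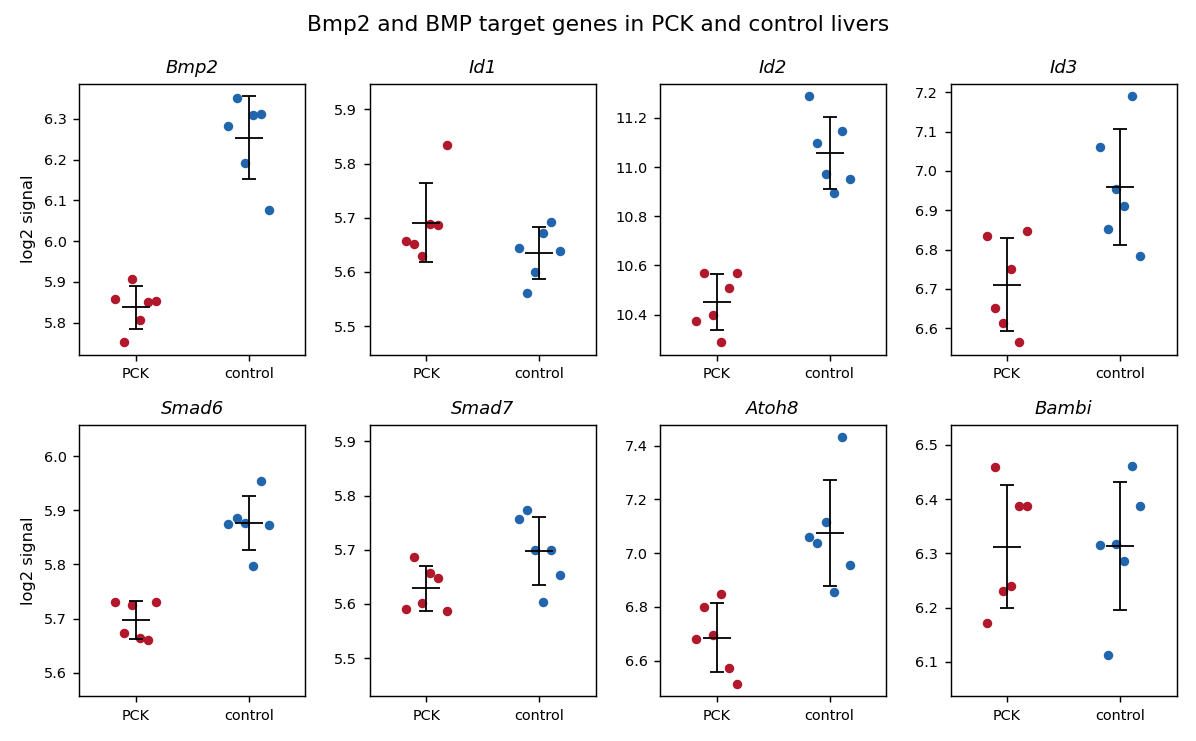
Log2 signal of Bmp2 and 7 BMP target genes in each liver, PCK (red, left) and control (blue, right), with mean and SD of 6 arrays a group; each panel has its own scale. Bmp2, Id2, Smad6 and Atoh8 are lower in PCK with no overlap, and Id1, Smad7 and Bambi overlap.

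Of 13 genes that make or shape the BMP signal, 5 fell, 1 rose and 7 were not called (median difference -0.0029). Bmp2, the other BMP ligand of the hepcidin pathway in mouse liver, ran from 5.75 to 5.91 in PCK livers, against 6.08 to 6.35 in control livers, with no overlap. The difference was -0.42 ± 0.045 (SE, log2 scale, limma adjusted p = 3.19e-05). Bmp2 averaged 5.84 in PCK and 6.25 in control livers, like Bmp6 not far above the median of the table, 5.66. The activin type 2 receptor gene Acvr2a fell by 0.38, Fam20c, a kinase of secreted proteins, by 0.30, and Neo1, encoding the hemojuvelin-binding receptor neogenin, by 0.17. Furin, a protease that cleaves prohepcidin, fell by 0.15, and the type 2 BMP receptor gene Bmpr2 rose by 0.17. Tmprss6, the protease that limits hepcidin by cutting hemojuvelin, was at 10.71 ± 0.16 in PCK and 10.55 ± 0.049 in control livers (SD, n = 6 each) and did not pass (adjusted p = 0.0815). Of 5 sinusoidal endothelial markers measured, 2 were lower (Clec4g at -0.99 and Lyve1 at -0.24) and none higher, a share near the 38.3% of all genes called. Their summed signal ran from 11.26 to 11.55 in PCK and from 11.47 to 11.78 in control livers (log2). Stab2, Fcgr2b and Pecam1 were not called, and the part of endothelial cells in the Bmp2 and Bmp6 values was not tested.

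The inflammatory arm of hepcidin control was mixed, with 3 genes lower, 2 higher and 6 not called of 11 (median difference -0.010). Among all genes 38.3% were called. Both receptor chains for interleukin 6 fell. Il6r ran from 9.18 to 9.77 in PCK livers, against 9.84 to 10.08 in control livers, a difference of -0.59 ± 0.086 (SE, log2 scale; limma adjusted p = 0.000276). Il6st, the shared signalling chain gp130, fell by 0.28 (adjusted p = 0.00266). The kinase genes behind the receptor rose, Jak1 by 0.28 ± 0.016 (adjusted p = 3.36e-07) and Jak2 by 0.27. Creb3l3, a liver factor of the acute phase response that acts on Hamp in mice, fell by 0.26. Stat3 differed by -0.010 (adjusted p = 0.954), its feedback target Socs3 by -0.17 (adjusted p = 0.0988), and Il6, near the bottom of the range at 5.23 in PCK and 5.23 in control livers, by 0.0057 (adjusted p = 0.622).

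Signals that lower hepcidin also went both ways, with 4 of 8 genes higher, 2 lower and a median difference of 0.076. The shares of all genes were 17.4% higher and 21.0% lower. Hgf, a growth factor that suppresses Hamp in cultured mouse hepatocytes, fell by 0.44 (limma adjusted p = 0.000362). Gdf15 rose by 0.15, at 5.84 in PCK and 5.69 in control livers, near the median of the table. Hif1a rose by 0.17. Fgl1, a liver-secreted hepcidin suppressor known from mice, rose by 0.19 ± 0.044 (log2, SE, limma adjusted p = 0.00549). Erfe, the hormone erythroferrone made by red cell precursors, was lower by 0.057 at a level of 5.53 in PCK and 5.59 in control livers, both below the median of the table.

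Genes that take up and reduce iron gave 2 higher, 3 lower and 5 not called of 10 (median difference 0.013). Over all genes 38.3% were called. The 2 ZIP transporters for iron outside transferrin moved apart. Slc39a14, the main such transporter of hepatocytes in mice, ran from 11.21 to 11.37 in PCK livers, against 10.86 to 11.11 in control livers, and rose by 0.30 ± 0.041 (SE, log2 scale; limma adjusted p = 0.000168). Slc39a8 ran from 8.99 to 9.19 in PCK livers, against 9.36 to 9.62 in control livers, and differed by -0.44 ± 0.051 (adjusted p = 6.04e-05). Lcn2, which binds iron carried by siderophores, was 5.61 higher in PCK, and Slc22a17, described as its receptor, fell by 0.36. Lcn2 is also an acute phase and epithelial gene. All 4 measured cholangiocyte markers were higher in PCK livers, beside 17.4% of all genes called higher. The summed signal of these markers was 8.54 to 9.15 in PCK and 7.64 to 7.77 in control livers (log2). Their part in the Lcn2 value was not tested. Cybrd1, an iron reductase of the gut, was lower by 0.052 at a level below the median of the table.

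Cp, encoding ceruloplasmin, the plasma oxidase that helps load exported iron onto transferrin, was higher in every PCK liver. It ran from 13.35 to 13.42 in PCK livers, against 13.02 to 13.19 in control livers, a difference of 0.28 ± 0.029 (SE, log2 scale; limma adjusted p = 2.80e-05). In its list of 6 storage and chaperone genes 2 rose and none fell (median difference 0.011), where 17.4% of all genes were called higher. The other that rose was Heph, a related oxidase, by 0.044 at a level below the median of the table. The Heph call was lost in 14 of 18 settings, 10 of them with 1 array left out. The ferritin receptor of autophagy, Ncoa4, differed by -0.090 and missed the threshold (adjusted p = 0.0665). Of 4 genes of the iron regulatory proteins and their control, 1 changed (median difference -0.031): Aco1, iron regulatory protein 1, fell by 0.21 ± 0.059 (adjusted p = 0.0163), with PCK livers at 10.26 to 10.50 just below control livers at 10.50 to 10.75, while Ireb2, iron regulatory protein 2, differed by -0.043 (adjusted p = 0.547).

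Heme scavenging and breakdown was the list with the largest share of rises. Of 9 genes 6 rose, 1 fell and 2 were not called, with a median difference of 0.16. Among all genes 17.4% were called higher. Hmox1, the inducible heme oxygenase that frees iron from heme, ran from 6.45 to 6.92 in PCK livers, against 5.91 to 6.20 in control livers, a difference of 0.62 ± 0.081 (SE, log2 scale; limma adjusted p = 0.000134). Slc48a1, which exports heme from lysosomes, rose by 0.47, Abcg2, a heme and porphyrin exporter, by 0.44, and the biliverdin reductase gene Blvra by 0.27. Abcg2 averaged 6.09 in PCK and 5.65 in control livers, near the median of the table, and its groups overlapped. The plasma scavengers were higher too, Hpx for heme by 0.16 and Hp for hemoglobin by 0.12, both near the top of the range. Hmox2, the constitutive heme oxygenase, fell by 0.24. Hmox1 and Slc48a1 are active in macrophages, whose markers were higher as given above, and that part was not tested; Cd163, the macrophage receptor for hemoglobin and haptoglobin, differed by -0.080 and was not called (adjusted p = 0.590).

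In heme synthesis, of 8 genes measured, 3 fell, 1 rose and 4 were not called (median difference -0.12). The share called over all genes was 38.3%. Fech, which inserts iron into the porphyrin ring, ran from 7.81 to 8.16 in PCK livers, against 8.27 to 8.65 in control livers, a difference of -0.42 ± 0.071 (SE, log2 scale; limma adjusted p = 0.000716). Abcb6, a porphyrin transporter, fell by 0.28 and Alad, the second enzyme of the pathway, by 0.27. Tspo rose by 0.087, at 5.67 in PCK and 5.58 in control livers, close to the median of the table.

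**Figure D5:**
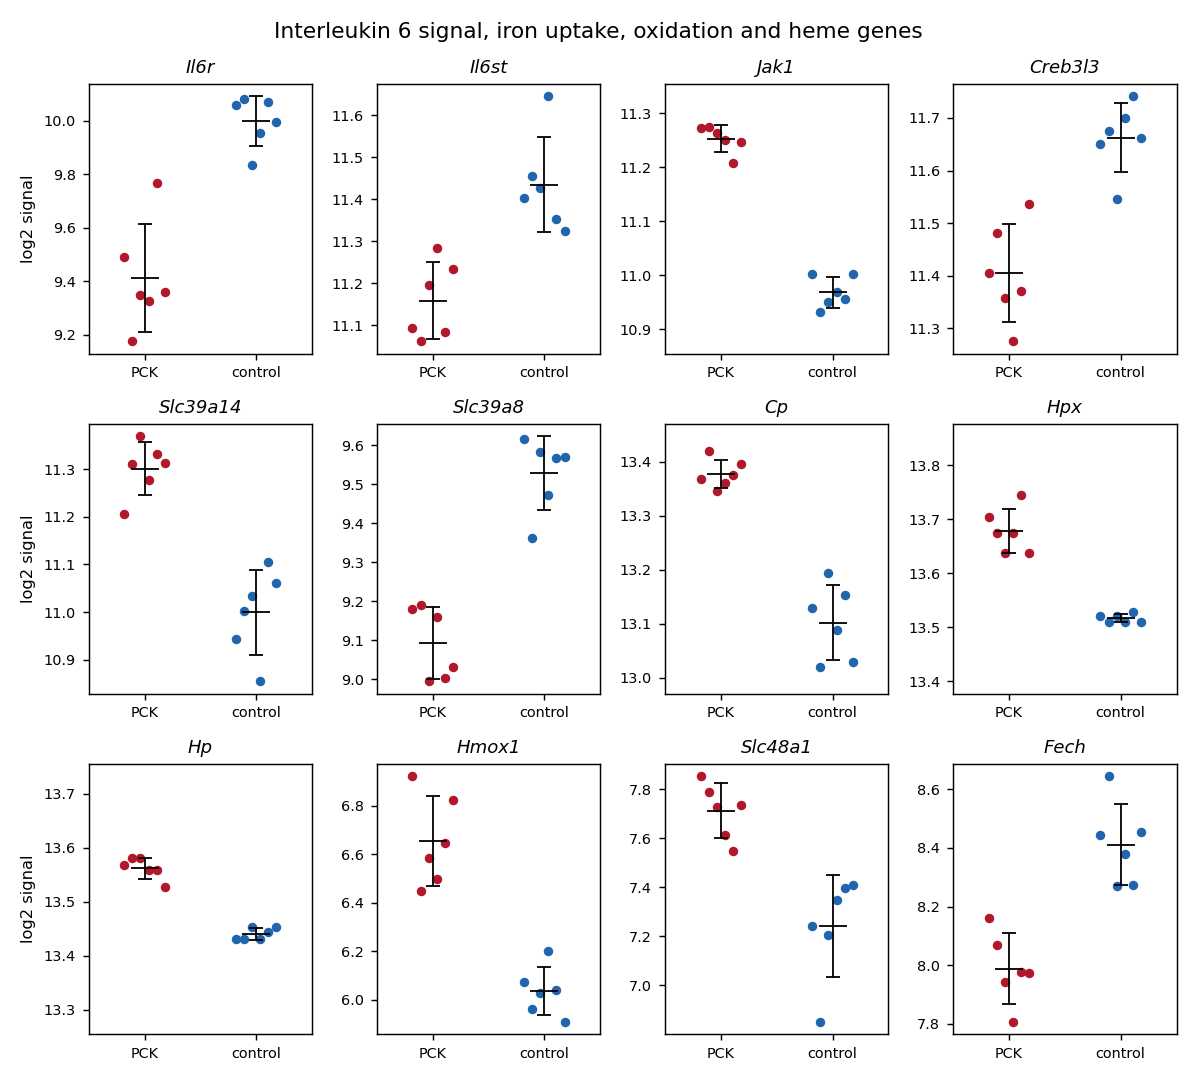
Log2 signal of 12 genes of interleukin 6 signalling, iron uptake and oxidation, and heme handling in each liver, PCK (red, left) and control (blue, right), with mean and SD of 6 arrays a group; each panel has its own scale. Jak1, Slc39a14, Cp, Hpx, Hp, Hmox1 and Slc48a1 are higher in PCK and the other 5 lower, with no overlap between groups in any panel. The panels were picked and do not stand for the lists. Of the 85 measured list genes, 10 lay wholly above and 16 wholly below control livers. Over all genes 21.6% did not overlap.

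Whether livers with less Hamp were also those with less of its signals was examined inside each group, since the groups themselves form separate clusters. Hamp was set against Bmp6, Id1, Smad6, Smad7, Atoh8, Socs3, Fgb and Tfr2, 16 relations in all over 6 livers each. Pearson's r was positive for 5 of 8 partners in PCK livers and for 7 of 8 in control livers. It was negative for Id1 in both groups, at -0.30 in PCK and -0.26 in control livers, and in PCK livers also for Socs3 (-0.49) and Smad6 (-0.084), with 2-sided exact permutation p of 0.306 or more. None passed adjustment; the lowest Benjamini-Hochberg adjusted exact permutation p was 0.32. For Bmp6, the ligand, r was 0.75 in PCK livers (exact permutation p = 0.100, 2-sided) and 0.84 in control livers (exact permutation p = 0.0361, 2-sided), adjusted p = 0.32 for each. Spearman's rho was 0.55 in PCK livers (exact permutation p = 0.272) and 0.77 in control livers (exact permutation p = 0.103), with adjusted p of 0.476 and 0.427. Without the 2 livers farthest from the median Bmp6 level, r was -0.51 in PCK, where the relation thus rested on those livers, and 0.85 in control.

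For Atoh8, r was 0.74 in PCK livers (exact permutation p = 0.0917, adjusted 0.32) and 0.64 in control livers (exact permutation p = 0.176, adjusted 0.403), and rho was 0.72 (exact permutation p = 0.122) and 0.83 (exact permutation p = 0.0583), adjusted 0.427 for each. Without the 2 farthest livers r was 0.95 in PCK and 0.93 in control. With 4 livers left these values have little weight. Other partners were alike in part: r in PCK and control livers was 0.50 and 0.74 for Fgb, and 0.42 and 0.75 for Smad7. For Tfr2 it was 0.60 and 0.18. In control livers r was 0.66 for Smad6 and 0.082 for Socs3. The smallest raw p of all was for Fgb in control livers, with rho 0.90 (exact permutation p = 0.0278, adjusted 0.427). Fgb, a hepatocyte marker, was near the top of the range, at 13.29 to 13.40 in control livers. There the set of values that all arrays share can limit its spread.

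Over the whole table, the genes whose signals most resembled Hamp across the livers of each group were Or12d13, Nhs, Tsga13, Pla2g5 and Gtf2i, ranked by the smaller of Pearson's r within the 6 PCK and within the 6 control livers. That smaller r ran from 0.84 for Gtf2i to 0.90 for Or12d13. All but Gtf2i lay below the median signal of the table. The ranking searched all named genes over 6 livers a group and is a description, with no test.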

How the data were processed

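The authors deposited log2 values for 19239 probe sets on 12 Affymetrix arrays (5.14 to 13.98, median 5.66), already normalized: the sorted values of every column are identical, the pattern that quantile normalization leaves. No label names the summarisation or normalization method. Such values carry no difference in total RNA, and no detection calls came with them. Per the labels' protocols, RNA was extracted with Trizol from frozen liver.

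RefSeq's current symbol (GRCr8) replaced the platform's for 3326 of 16592 named genes; 2647 probe sets had no name. limma 3.58.1 (R 4.3.3) gave 2-sided tests adjusted over all named genes, with no signal filter. Summed marker signals are log2 of summed linear values. Permutation tests and figures used Python 3.11.15 and matplotlib 3.10.9. The fit was tested on simulated data. The number of arrays limits the precision.

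The text names all 10 members, from each list up to 4 called genes with the largest difference (2 with the smallest p where none was called), and the 5 genes most like Hamp. Other list and marker genes were named after their values were seen. Members and lists were chosen with earlier results of these data known. Alternatives changed the centring, dim-gene filter, probe sets, variance model, array weights, replicate block, threshold and arrays. Some genes of the lists are not reported here.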

Additional observations from a re-analysis of the deposited data

Results flagged for a closer look

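Of 90 groups of 6 livers looked at, for the 10 iron genes and the 35 named genes of the lists, 4 held 1 liver far from the rest of its group by Dixon's 95% criterion, which chance alone meets in about 1 in 20 groups. Fth1 in PCK 5 was at 13.64, where the other 5 PCK livers were all at 13.79. Lcn2 in PCK 6 was at 12.26, with the next highest PCK liver at 11.54. Abcb6 in PCK 1 was at 7.01, with the next at 6.85. Slc48a1 in control 2 was at 6.85, with the next lowest control liver at 7.21. Without these livers the differences between PCK and control were 0.014 for Fth1, not called, 5.45 for Lcn2, -0.31 for Abcb6 and 0.39 for Slc48a1, the last 3 called.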

How the results depend on the processing

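Hamp, Bmp6, Hfe and Tfr2 kept their direction and their call in each of 19 other settings at the 0.05 threshold, with adjusted p up to 0.00442, 0.0424, 0.000622 and 0.0108. Tf and Slc11a2 were called in none. With 1 array left out, differences ran from -0.78 to -0.66 for Hamp, -0.26 to -0.18 for Bmp6, 0.53 to 0.59 for Hfe, -0.30 to -0.21 for Hjv, -0.89 to -0.71 for Tfr2, -0.61 to -0.43 for Tfrc and -0.25 to -0.18 for Slc40a1, which lost its call in 8 of 12 such fits; Tfrc lost it in 1. Fth1 ran from -0.019 to 0.014, turning positive without PCK 5, and was never called. The replicate block ended the call of Tfrc, at -0.53 (adjusted p = 0.101), and of Id3, Heph and Isca2; same-numbered arrays did not deviate together (correlations from -0.14 to 0.17 over genes), so the numbers were not taken as pairs. Leaving out control 5, control 6 and PCK 6 together, a choice made after the data were seen, ended the call of Hjv, at -0.17, and of Fam20c, Gdf15, Hif1a, Heph and Isca1. At an adjusted p of 0.01, 3 of the 10 genes were lower in place of 6, and 1 higher. At that threshold 4273 of all 16592 genes were called, 2105 of them higher. Leaving out 1 array gave 4 to 6 lower and 1 higher among the 10. Among the other 85 it gave 21 to 26 lower and 17 to 20 higher. Those fits called 5731 to 6367 of all genes, 2679 to 2880 of them higher. Of the 35 list genes named by rule, 28 were called in every setting; Heph and Isca1 lost their calls most often, in 14 and 9. The files hold no background measure, so how far signals near the table median stand above background is not known.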

Other observations

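Mitochondrial iron genes were split. Of 9 measured genes of mitochondrial iron and iron-sulfur clusters, 3 were lower, 1 higher and 5 not called. Over all genes 38.3% were called. The median difference of the 9 was -0.037 (PCK minus control, log2). Slc25a37, encoding mitoferrin 1, an iron importer of the inner membrane, ran from 6.18 to 6.39 in PCK livers, against 6.55 to 6.84 in control livers, a difference of -0.45 ± 0.054 (log2, SE; limma adjusted p = 6.07e-05). Its relative Slc25a28, mitoferrin 2, differed by 0.13 and was not called (adjusted p = 0.215). Iscu, the scaffold on which clusters are built, rose by 0.22 (adjusted p = 0.00723), and the assembly factors Isca2 and Isca1 were lower by 0.27 and 0.12, the second with a call that 9 of 19 settings ended.

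Of 6 measured markers of red cell precursors 1 was called, Klf1, lower by 0.061 at a level below the median of the table. Over all genes 38.3% were called, 21.0% of them all lower and 17.4% higher. The summed signal of the 6 markers ran from 11.90 to 12.56 in PCK and from 11.71 to 12.43 in control livers (log2). Most of that signal was Hbb, at 12.25 ± 0.28 in PCK and 11.88 ± 0.28 in control livers (SD, n = 6 each, limma adjusted p = 0.0697). The sum thus mainly follows that gene, and the median difference of the 6 markers was -0.035 (log2). The other globin gene, listed by the array as Hba-a2, was at 5.64 in PCK and 5.69 in control livers and was not called (limma adjusted p = 0.695).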
